A study of Mus musculus with 8 samples.

Results

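The 10 genes described here, Spry1, Spry2, Spry4, Spred1, Spred2, Dusp4, Dusp6, Etv1, Etv4 and Etv5, are feedback and target genes of the ERK pathway. They were chosen by name, as a readout of receptor tyrosine kinase signalling, out of 23284 gene symbols in the count files. All 10 were present, and all 10 were among the 14696 genes that passed a filter on low counts and were tested. None of the 10 passed an adjusted p of 0.05 between the genotypes, which 0.0272% of all genes tested did, and the fitted differences were small, with 9 of 10 fitted slightly higher in the libraries labelled ErbB4-/- (49.2% of all genes tested) but 4 of 10 once KO replicate 3 was left out.

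The study compared dorsal cortex of C57BL/6 mouse embryos at E15.5 between wild-type (WT, ErbB4+/+) and ErbB4 knock out (KO, ErbB4-/-) animals, with 4 libraries of each label. The KO line is described as lacking the receptor tyrosine kinase ErbB4 outside the heart, where a transgene under the alpha-MHC promoter, active in heart muscle, expresses it. That transgene keeps the embryos alive. The lines were bred as separate homozygous colonies, and meninges and ganglionic eminences were dissected away before RNA was extracted. The labels do not say whether the embryos came from separate litters, so p-values measure the spread between these libraries.

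Receptor tyrosine kinases such as the ErbB and FGF receptors activate Ras, Raf, MEK and then the kinase ERK, which phosphorylates transcription factors. Among the genes that ERK activity is known to switch on are inhibitors of the same pathway, so their RNA is widely used as a record of recent signalling. Sprouty and Spred proteins act on Ras and Raf, the phosphatases DUSP4 and DUSP6 remove phosphate from ERK itself, and the PEA3 factors ETV1, ETV4 and ETV5 carry part of the transcriptional response. In the embryonic forebrain these genes are best known as targets of FGF signalling in progenitors.

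Promoter sequence was examined for motifs through which this group is often described as controlled. RefSeq windows from 250 bases before to 50 bases after a start site (assembly GRCm38.p6) were found for 7 of the 10 genes, as 9 windows, and each matched the mm9 genome once. The windows were searched on both strands for TGAATGAA or TGAATGGA (the octamers bound by Capicua, a repressor that ERK inactivates), CCGGAAGT (an ETS motif), TGACTCA (AP-1) and TGACGTCA (CRE). None of these motifs occurred in any of the 9 windows. Spry4, Dusp4 and Etv4 had no window and were not searched. The 250 bases before the start lay wholly inside the GENCODE gene in the Etv1 windows and in the second Etv5 window. In the first Etv5 window 149 of them did. Among all 32851 windows of the same length, 2.47% held a Capicua octamer, 3.89% the ETS motif, 5.20% the AP-1 motif and 1.79% the CRE. Bases before the start site are shown for Dusp6 and Spred2, the genes with the largest fitted differences between the genotypes, from the RefSeq windows placed on mm9. The Dusp6 stretch of 250 bases lies at chr10:98725615-98725864 and the Spred2 stretch of 183 bases at chr11:19824195-19824377, both on the plus strand. The last 67 of the 250 bases before the RefSeq start of Spred2 lie inside the gene as GENCODE annotates it and are not shown. All letters are in lower case because no searched motif was found. The GC content of the whole window was 57.3% for Dusp6, against a median of 52.7% over all windows.
Dusp6: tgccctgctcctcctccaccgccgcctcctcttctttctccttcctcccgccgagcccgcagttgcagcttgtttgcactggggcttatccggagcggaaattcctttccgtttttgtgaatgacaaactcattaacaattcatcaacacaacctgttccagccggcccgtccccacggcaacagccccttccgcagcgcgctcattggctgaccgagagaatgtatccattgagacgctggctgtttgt
Spred2: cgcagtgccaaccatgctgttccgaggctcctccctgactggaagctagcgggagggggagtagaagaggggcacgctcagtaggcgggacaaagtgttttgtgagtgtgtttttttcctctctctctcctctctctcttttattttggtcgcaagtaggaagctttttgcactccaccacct

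Several facts about the libraries bear on each comparison. Counted reads ran from 28205703 to 38346416 in WT libraries (median 33082514) and from 31574536 to 48871480 in KO libraries (median 37025078). The targeted gene was not lower in the libraries labelled KO. Erbb4 (mm9, chromosome 1, 68078760 to 69154633, minus strand) had 8.99, 19.9, 25.3 and 19.2 CPM (counts scaled by TMM normalization to a common library size) in WT replicates 1 to 4 and 20.9, 24.6, 20.7 and 23.5 CPM in KO replicates 1 to 4, a log2 fold change of 0.28 (SE 0.23, edgeR adjusted p = 0.812). The counts are summed over the gene and do not show which exons were read, so the genotypes given here are those of the labels. WT replicate 1 stood apart on the first principal component, which held 30.6% of the variance, at −38.9, with the next library at −6.07. Xist, the RNA of the inactive X chromosome, had 27567, 50272 and 64702 counts in WT replicates 1 to 3 but 122 in WT replicate 4 and 118 to 133 in the KO libraries. The Xist pattern and the genotype label therefore coincide except in WT replicate 4.

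Across all genes tested, 4 of 14696 (0.0272%) had an adjusted p under 0.05 in edgeR's quasi-likelihood test with Benjamini-Hochberg adjustment, and 0 of the 10 ERK pathway genes did. DESeq2 and limma-voom also called 0 of the 10, where they called 23 of 18851 and 4 of 14696 of all genes tested. At an unadjusted p under 0.05, edgeR had 812 genes (5.53%), and 1 of the 10, Dusp6, was among them. DESeq2 and limma-voom also had 1 of 10 at that level, where 5.10% and 5.72% of all genes passed it. The libraries of the genotypes did not overlap in 491 genes (3.34%) and in 1 of the 10, again Dusp6. The fitted log2 fold change, KO over WT, was above 0 in 49.2% of all genes and in 9 of the 10. Its median was 0.085 over the 10 genes and −0.0022 over all genes tested. The median absolute log2 fold change was 0.11 over the 10 and 0.082 over all genes. The median of the 10 depended on KO replicate 3. Without that library it was −0.0053, and 4 of the 10 were above 0. In bulk tissue, fewer cells of a type and less RNA per cell cannot be told apart.

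**Figure D1:**
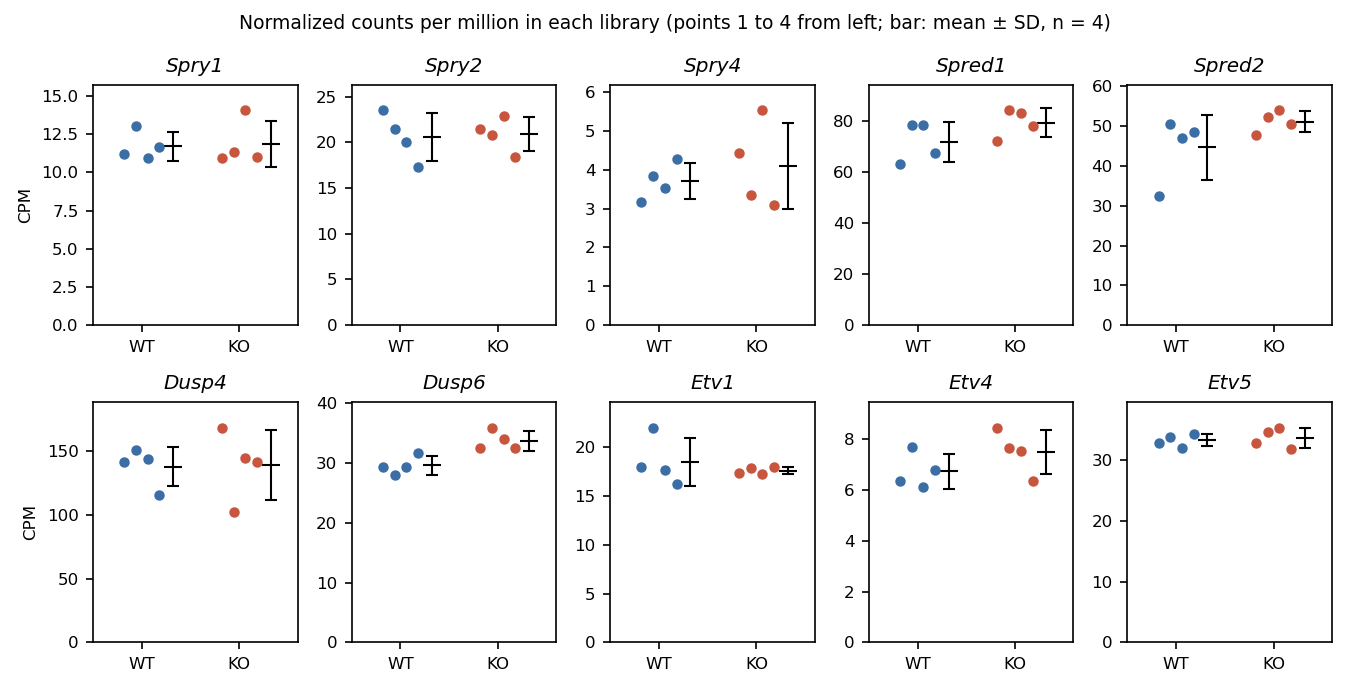
CPM (vertical axis, from 0) of each gene in the 4 WT and the 4 KO libraries (points, replicates 1 to 4 from left to right), with the mean ± SD (n = 4) as a bar at the right of each group. The genotypes overlap in every panel except Dusp6, where KO libraries run from 32.4 to 35.9 CPM and WT libraries from 27.97 to 31.7 CPM.

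Spry1 (chromosome 3, 37538869 to 37543520, plus strand), whose product restrains Ras and Raf activation below receptor tyrosine kinases, had 11.2, 13.1, 10.9 and 11.6 CPM in WT replicates 1 to 4. It had 11.0, 11.3, 14.1 and 11.0 CPM in KO replicates 1 to 4. The genotypes overlapped, and KO replicate 3 was the highest of the 8 libraries while the other 3 KO libraries lay within the WT range. The means were 11.7 ± 0.942 and 11.8 ± 1.49 CPM (SD, n = 4), and the log2 fold change was 0.016 (SE 0.11, edgeR adjusted p = 0.981). Without KO replicate 3 it was −0.077.

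Spry2 (chromosome 14, 106291166 to 106296036, minus strand) encodes a Sprouty protein that binds the ubiquitin ligase CBL. It had 23.5, 21.4, 20.0 and 17.3 CPM in WT replicates 1 to 4 and 21.5, 20.8, 22.9 and 18.4 CPM in KO replicates 1 to 4. Replicate 4 was the lowest library under both labels, and the KO range lay inside the WT range. The means were 20.5 ± 2.62 and 20.9 ± 1.88 CPM (SD, n = 4), with a log2 fold change of 0.028 (SE 0.10, edgeR adjusted p = 0.960). It was −0.047 without WT replicate 4 and −0.019 without KO replicate 3, but 0.26 with Xist as a covariate.

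Spry4 (chromosome 18, 38745922 to 38760922, minus strand) was the most weakly counted of the 10, with 89 to 218 counts per library. It had 3.17, 3.85, 3.52 and 4.27 CPM in WT replicates 1 to 4 and 4.42, 3.36, 5.53 and 3.08 CPM in KO replicates 1 to 4. The KO libraries spanned the whole WT range, with KO replicate 3 the highest and KO replicate 4 the lowest of all 8. The log2 fold change of 0.15 (SE 0.19, edgeR adjusted p = 0.861) had the widest interval of the 10, from −0.26 to 0.56. That interval holds the values fitted for Dusp6 and Spred2 as well as 0. Without KO replicate 3 its log2 fold change was −0.025.

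The Spred genes encode Sprouty-related proteins with an EVH1 domain, and SPRED1 brings neurofibromin to the membrane, where it switches Ras off. Spred1 (chromosome 2, 116947110 to 117008015, plus strand) had 63.0, 78.4, 78.5 and 67.3 CPM in WT replicates 1 to 4. It had 71.9, 84.1, 83.1 and 78.1 CPM in KO replicates 1 to 4. KO replicates 2 and 3 lay above every WT library and WT replicates 1 and 4 below every KO library, and the ranges overlapped between 71.9 and 78.5 CPM. The means were 71.8 ± 7.88 and 79.3 ± 5.57 CPM (SD, n = 4), which gave a log2 fold change of 0.14 (SE 0.084, interval −0.041 to 0.33, edgeR adjusted p = 0.810). It was 0.085 without WT replicate 1 and 0.26 with Xist as a covariate.

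Spred2 (chromosome 11, 19824378 to 19924029, plus strand) had 32.6, 50.6, 47.1 and 48.5 CPM in WT replicates 1 to 4. It had 47.8, 52.2, 54.0 and 50.5 CPM in KO replicates 1 to 4. WT replicate 1 was far below the other 7 libraries, which all lay between 47.1 and 54.0 CPM. The log2 fold change was 0.19 (SE 0.12, interval −0.063 to 0.45, edgeR adjusted p = 0.810), and 0.069 without WT replicate 1. Spred2 thus had the largest fitted value of the 10 with all libraries and less than that of Spred1 (0.085) once this library was left out.

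The DUSP genes encode phosphatases that take phosphate off mitogen-activated protein kinases. DUSP4 works mainly in the nucleus, whereas DUSP6 is a cytoplasmic enzyme with a strong preference for ERK. Dusp4 (chromosome 8, 35870351 to 35882948, plus strand) had 141, 151, 144 and 116 CPM in WT replicates 1 to 4. It had 169, 103, 145 and 142 CPM in KO replicates 1 to 4. KO replicate 1 was the highest and KO replicate 2 the lowest of all 8 libraries, so the KO libraries enclosed those labelled WT. The means of 138 ± 15.6 and 140 ± 27.4 CPM (SD, n = 4) gave a log2 fold change of 0.016 (SE 0.13, edgeR adjusted p = 0.984). It was −0.089 without KO replicate 1, −0.061 without WT replicate 4 and −0.0031 without KO replicate 3, but 0.26 with Xist as a covariate. Dusp4 had the most counts of the 10, from 3572 to 8314 per library, yet its biological coefficient of variation, the spread between libraries beyond counting error, was 13.2% against 8.10% for genes of like abundance.

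Dusp6 (chromosome 10, 98725865 to 98730122, plus strand) had 29.2, 27.97, 29.3 and 31.7 CPM in WT replicates 1 to 4. It had 32.4, 35.9, 33.9 and 32.5 CPM in KO replicates 1 to 4. Every library labelled KO lay above every WT library, and the nearest pair, WT replicate 4 and KO replicate 1, were 31.7 and 32.4 CPM. The means were 29.5 ± 1.55 and 33.7 ± 1.62 CPM (SD, n = 4), which gave a log2 fold change of 0.19 (SE 0.067, interval 0.040 to 0.34), or 13.9% more. The edgeR unadjusted p was 0.0170, which ranked 265 among all genes, and the adjusted p was 0.810. With Xist as a covariate the log2 fold change of Dusp6 was 0.089 (unadjusted p = 0.416 in edgeR's test). With only the 5 libraries of low Xist, WT replicate 4 and the KO libraries, it was 0.087. This choice was made after the data were seen, and it assumes that the lone WT library varies like the others. The genotype and the Xist pattern cannot be told apart in the other libraries. Without KO replicate 2 the unadjusted p of Dusp6 was 0.0654 and 0 of the 10 genes passed 0.05, where 2.90% of all genes did.

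The 2 phosphatase genes varied in opposite directions between libraries of 1 label. Among WT libraries Dusp4 was highest and Dusp6 lowest in replicate 2, and Dusp4 was lowest and Dusp6 highest in replicate 4. Among libraries labelled KO, Dusp4 was highest and Dusp6 lowest in replicate 1, and Dusp4 was lowest and Dusp6 highest in replicate 2. With the mean of each genotype subtracted, Pearson's r of their log2 CPM was −0.890 and Spearman's rho −0.738 over the 8 libraries. Without the 2 libraries farthest from the median of Dusp4, KO replicate 2 and WT replicate 4, r was −0.470 over 6 libraries, which cover a narrower range of Dusp4. This is a description of the most negative of 45 pairs, and the values share libraries and normalization.

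The PEA3 genes encode ETS transcription factors whose RNA is a common readout of FGF signalling. Etv1 (chromosome 12, 39505967 to 39594802, plus strand) was the only one of the 10 fitted lower in the libraries labelled KO. It had 17.9, 22.0, 17.7 and 16.1 CPM in WT replicates 1 to 4 and 17.3, 17.8, 17.2 and 17.97 CPM in KO replicates 1 to 4. The KO libraries were tightly grouped inside the WT range, and WT replicate 2 was the highest. The log2 fold change was −0.069 (SE 0.095, edgeR adjusted p = 0.871), and it was 0.026 without WT replicate 2. It was also above 0 with Xist as a covariate (0.13) and in the low-Xist libraries (0.12).

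Etv4 (chromosome 11, 101631056 to 101646685, minus strand) had 178 to 417 counts per library. It had 6.35, 7.70, 6.12 and 6.78 CPM in WT replicates 1 to 4 and 8.46, 7.67, 7.53 and 6.35 CPM in KO replicates 1 to 4. KO replicate 1 was above every WT library and KO replicate 4 was level with WT replicate 1, so the genotypes overlapped. The log2 fold change was 0.16 (SE 0.12, interval −0.10 to 0.42, edgeR adjusted p = 0.810), and it was 0.094 without KO replicate 1.

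Etv5 (chromosome 16, 22381382 to 22439792, minus strand) had a coefficient of variation of 3.01% over WT libraries, the lowest of the 10 there, and 4.94% over KO libraries, where Etv1 and Dusp6 were lower. It had 32.8, 33.9, 32.1 and 34.3 CPM in WT replicates 1 to 4 and 32.8, 34.7, 35.4 and 31.8 CPM in KO replicates 1 to 4. The ranges overlapped almost fully. The log2 fold change was 0.017 (SE 0.063, edgeR adjusted p = 0.960), or −0.0074 without KO replicate 3, and its 95% interval, from −0.12 to 0.16, was the narrowest of the 10. In percent, that interval ran from 8.04% lower to 11.4% higher in the libraries labelled KO.

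**Figure D2:**
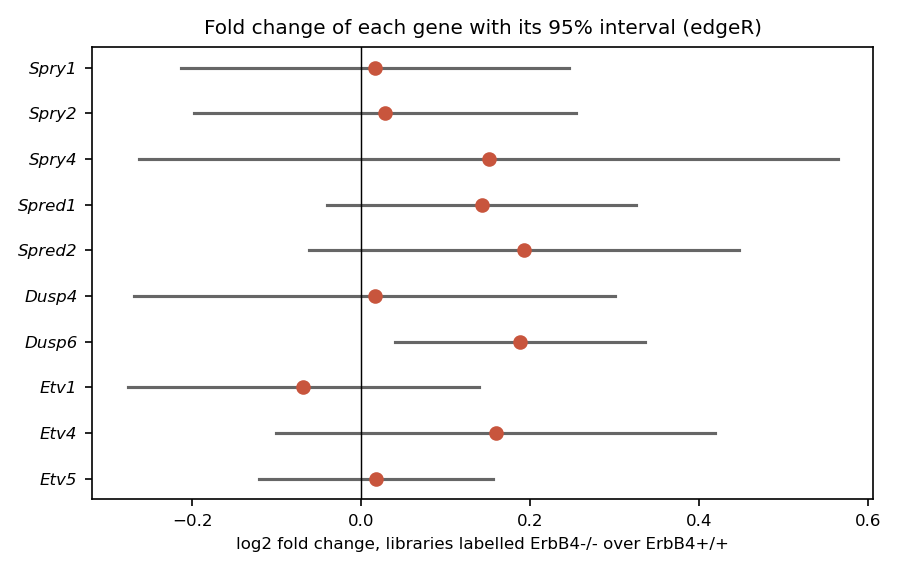
Log2 fold change of each gene (horizontal axis, libraries labelled ErbB4-/- over ErbB4+/+, point) with its 95% interval from edgeR (line). The interval leaves 0 outside only for Dusp6 (0.040 to 0.34), before any adjustment for the genes tested, and it is widest for Spry4 (−0.26 to 0.56).

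Levels between genes were compared as CPM per kb of the longest annotated transcript. In WT libraries Dusp4 was highest at 50.4 ± 5.70 CPM per kb (SD, n = 4), at the 89.9 percentile of the 14392 tested genes with a length. Spred1 followed at 11.9 ± 1.31, Dusp6 at 10.6 ± 0.553, Spred2 at 10.04 ± 1.85, Spry2 at 9.85 ± 1.26 and Etv5 at 8.37 ± 0.252 CPM per kb. Each neighbour in that run of 5 genes overlapped the next over the WT libraries. Etv1 at 4.28 ± 0.578 and Spry1 at 4.22 ± 0.340 CPM per kb also overlapped each other. Etv4 at 2.81 ± 0.291 and Spry4 at 0.807 ± 0.102 CPM per kb each lay clear of the gene before. Spry4, at the 14.8 percentile, was 62.4-fold below Dusp4. The KO libraries had the same order except that Spry1 and Etv1 changed places, as neighbours that overlap. With the union of exons as the length, 6 of 10 genes kept their rank, Spred2 and Spry2 exchanging places, as did Etv1 and Spry1.

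**Figure D3:**
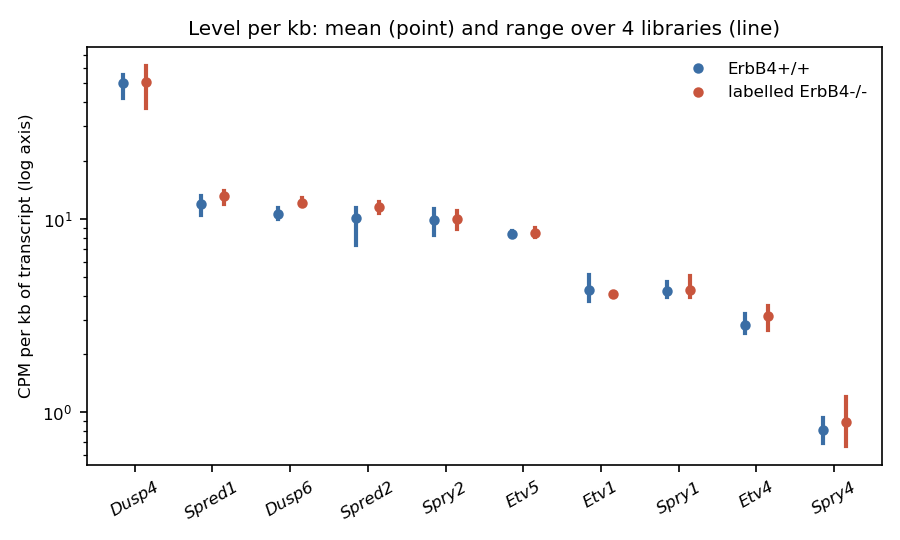
Level of each gene as CPM per kb of transcript (vertical log axis), with the mean (point) and the range over 4 libraries (line) for each genotype. Dusp4 stands above the others at 50.4 CPM per kb in WT libraries and Spry4 below them at 0.807 CPM per kb, and the genotypes lie side by side at each gene.

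Within a genotype, the libraries differed in how many of the 10 lay above the mean of their label. In WT replicate 2, 9 of 10 were above the WT mean on the log2 scale (52.5% of all genes tested), and in KO replicate 3, 9 of 10 were above the mean of the libraries labelled KO (51.7% of all genes). In WT replicate 1 and in KO replicate 4, 8 of 10 were below the mean of their label (50.1% and 49.5% of all genes). Over the 45 pairs of genes, Pearson's r with genotype means subtracted ran from −0.890 to 0.747 with a median of 0.246 over the 8 libraries, and 32 were positive, of which 7 were above 0.5. The most alike pairs were Spred1 and Spred2 (r = 0.747), Spry1 and Etv5 (r = 0.739) and Spry1 and Spry4 (r = 0.700). The genes outside the group whose log2 CPM was most like the mean standardized profile of the 10 were Itfg1 (r = 0.969), Zfp108 (r = 0.967), Cercam (r = 0.967), Cntn1 (r = 0.966) and Arntl2 (r = 0.963), over 8 libraries. The 10 genes themselves had r from −0.038 (Dusp6) to 0.878 (Spry1) with that profile, so it stands for some of them poorly. The outside genes were picked as the highest r among all genes tested, so high values come with the choice. These correlations are a description, since all genes share the same 8 libraries.

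**Figure D4:**
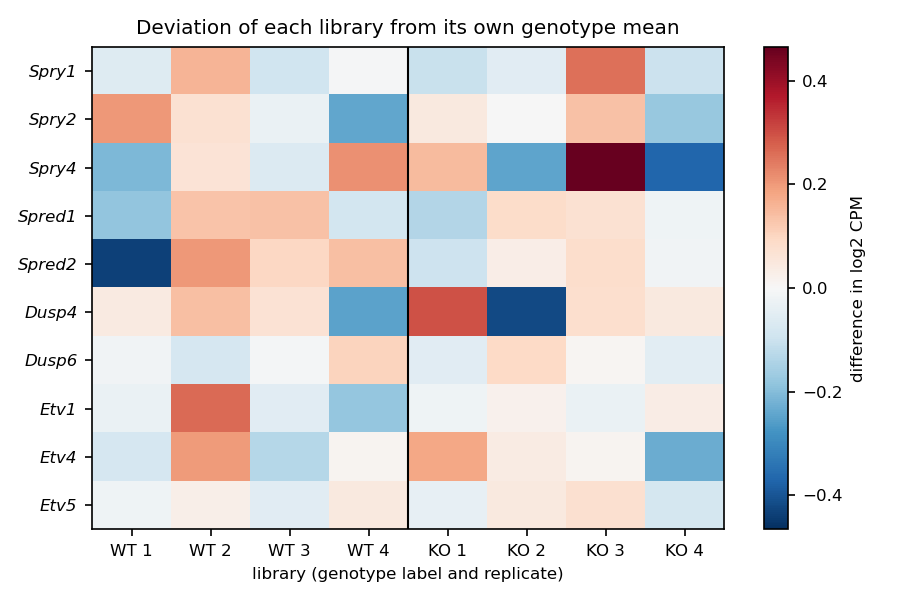
Difference in log2 CPM (colour) of each library (columns, genotype label and replicate) from the mean of its own genotype, for each gene (rows). WT 2 and KO 3 have 9 of 10 genes above their mean, WT 1 and KO 4 have 8 of 10 below, and the rows of Dusp4 and Dusp6 have opposite colours in WT 2, WT 4, KO 1 and KO 2.

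Upstream lies the ERK cascade itself. Of 22 genes from the adaptors Grb2 and Frs2 and the Ras exchange factor Sos1 through Ras, Raf and MEK to the Rsk kinases, 0 passed the adjusted or the unadjusted 0.05 in edgeR's test (0.0272% and 5.53% of all genes did), and 15 were fitted higher (49.2% of all genes). Summed over the list, WT libraries had 2801 to 2921 CPM and KO libraries 2865 to 2933 CPM. The genes with the lowest p-values of the list were Ksr1, a scaffold for Raf and MEK (log2 fold change 0.16, SE 0.095), the Ras GTPase-activating gene Rasa1 (0.071, SE 0.050) and the FGF receptor adaptor Frs2 (0.11, SE 0.085).

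Of 25 other feedback and target genes, such as Spry3, Dusp1, Dusp5, Il17rd, Ccnd1, Egr1, Fos and Myc, 24 were tested and Fosl1 fell under the filter. None had an adjusted p under 0.05 in edgeR's test, 1 had an unadjusted p under 0.05 (5.53% of all genes), and 13 were fitted higher (49.2% of all genes). That gene was Ccnd1, which encodes cyclin D1, with 83.4 to 87.3 CPM in WT and 68.2 to 84.2 CPM in KO libraries. KO replicate 4, the highest of its label, overlapped the WT range. Its log2 fold change was −0.22 (SE 0.069, unadjusted p = 0.00911 and adjusted p = 0.810 from edgeR). Il17rd, also called Sef, an inhibitor of FGF signalling, had 11.0 to 14.5 CPM in WT and 13.9 to 15.3 CPM in KO libraries (log2 fold change 0.20, SE 0.096). Spry3 had 8.34 to 10.01 and 9.46 to 12.5 CPM (log2 fold change 0.18, SE 0.11).

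Among ligands and receptors, 10 of 12 FGF genes and 8 of 9 ErbB genes were tested, with Fgf2, Fgf8 and Btc under the filter. None of these 18 had an adjusted p under 0.05 in edgeR's test. At an unadjusted p under 0.05 there were 2 FGF genes, Fgf17 and Fgf18, and 1 ErbB gene, Erbb3, against 5.53% of all genes tested. Fgf17, a ligand of the rostral patterning centre, had 1, 10, 14 and 8 counts in WT replicates 1 to 4 and 27, 10, 100 and 21 counts in KO replicates 1 to 4. KO replicate 3 held most of its counts, and that library also had 9 of the 10 ERK pathway genes above the mean of its label. So did WT replicate 2, which had only 10 Fgf17 counts. The part of Fgf17 in those values was not tested. Fgf18 had 3.23 to 4.85 CPM in WT and 2.79 to 3.39 CPM in KO libraries (log2 fold change −0.40, SE 0.15, unadjusted p = 0.0216 and adjusted p = 0.810 from edgeR). The receptor gene Fgfr3 had 97.6 to 141 and 90.0 to 120 CPM (log2 fold change −0.22, SE 0.12).

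Erbb3, the receptor that pairs with ErbB2 to bind neuregulins, was near the filter, with 12, 17, 12 and 17 counts in WT replicates 1 to 4 and 50, 30, 32 and 20 counts in KO replicates 1 to 4. As CPM, every library labelled KO was above every WT library, with a log2 fold change of 0.93 (SE 0.26, unadjusted p = 0.00440 and adjusted p = 0.810 from edgeR). The neuregulin gene Nrg2 (0.34, SE 0.16) and the receptor gene Egfr (0.35, SE 0.17) had the next lowest p-values of the list and overlapped between the genotypes. Of the 8 ErbB genes 7 were fitted higher, and of the 10 FGF genes 4, where 49.2% of all genes were.

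Markers of cell types were read in the same libraries. Of 12 cortical progenitor markers, 11 were fitted lower and 1 higher in the libraries labelled KO (49.2% of all genes tested were higher), 5 had an unadjusted p under 0.05 (5.53% of all genes) and 0 an adjusted p under 0.05 in edgeR's test. Those 5 were Pax6 (log2 fold change −0.27), Neurog2 (−0.35), Hes1 (−0.24), Nes (−0.23) and Vim (−0.19). The summed level of the list was 2753 to 3399 CPM in WT and 2689 to 3061 CPM in KO libraries, which overlap, and no marker was at 0. Of 12 cortical neuron markers 8 were fitted higher, with sums of 9886 to 10225 and 10149 to 10768 CPM. Of 8 interneuron and ganglionic eminence markers 3 were higher, with sums of 468 to 636 and 458 to 645 CPM. The meningeal and vascular sums were 117 to 128 and 120 to 129 CPM (6 of 9 tested markers higher), and those of microglia 38.8 to 45.3 and 41.5 to 46.8 CPM (4 of 6 higher). The astrocyte and oligodendrocyte lineage sums were 72.8 to 91.3 and 79.4 to 103 CPM, with 6 of 7 tested markers higher. Gfap (16 to 93 counts per library), Sox10 and Pdgfra had an unadjusted p under 0.05. None of that list had an adjusted p under 0.05 in edgeR's test. The red blood cell sums were 31.8 to 56.6 and 20.8 to 35.2 CPM, with 1 of 4 tested markers higher and Hba-a1 at 0 in all libraries. Hbb-y (log2 fold change −1.72) and Hba-x (−1.23) had an unadjusted p under 0.05, and neither had an adjusted p under 0.05 in edgeR's test. The part of cell composition in the values of the ERK pathway genes was not tested.

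Each fold change was recomputed under 18 alternatives. Spred1, Spred2, Dusp6 and Etv4 kept a positive sign in all 18, and the other 6 changed sign in at least 1. The sign changes lay among the settings that left out 1 library or dealt with Xist. With Xist as a covariate the log2 fold changes were 0.26 for Spry2, 0.26 for Spred1, 0.26 for Dusp4, 0.11 for Spred2 and 0.13 for Etv1, and they were −0.066 for Spry4 and −0.027 for Etv5. The edgeR adjusted p of each was 1.00. In the low-Xist libraries Spred2 was at 0.076. None of the 10 had an adjusted p under 0.05 in any of the 18, where the lowest was 0.525, for Dusp6 without WT replicate 2.

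**Figure D5:**
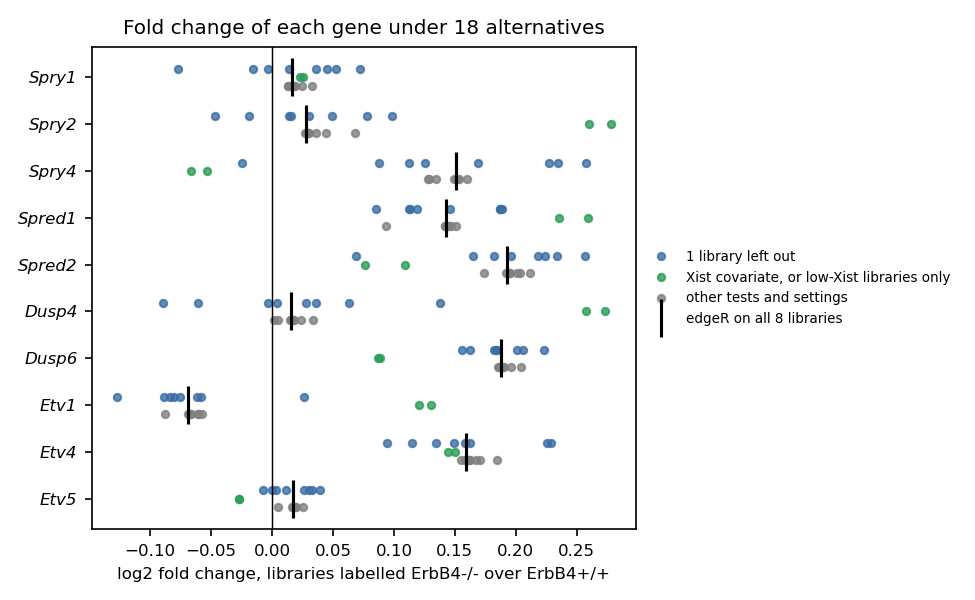
Log2 fold change of each gene (horizontal axis) with edgeR on all 8 libraries (black bar) and under 18 alternatives, as points for settings that leave out 1 library (blue), that use Xist (green), and for other tests and settings (grey). Points of Spred1, Spred2, Dusp6 and Etv4 all lie above 0, with Dusp6 between 0.087 and 0.22.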

How the data were processed

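Raw counts were deposited, 1 file for each of 8 libraries, with 23284 gene symbols in each. A university sequencing core prepared and sequenced polyA-selected libraries without strand information. HISAT was used to map the single-end reads to mm9, and HTSeq to obtain 1 count per gene. Versions, gene annotation and counting mode were not given in the sources used here. A deposited DESeq2 table of the authors' own comparison (fold changes and p-values) was not used.

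Genotypes came from the labels. The test was the quasi-likelihood F test of edgeR 4.0.16 under R 4.3.3, with TMM normalization. Genes were kept by filterByExpr with a minimum count of 10, which need not be met in every library, and a minimum total of 15. Benjamini-Hochberg adjustment ran over 14696 genes with a threshold of 0.05, and 95% intervals used standard errors from that test. Library values are CPM after TMM, log2 values with a prior count of 2. Lengths and positions came from GENCODE vM1 on NCBIM37 (mm9), and none of the 10 genes overlaps another annotated gene. No libraries of 1 label were duplicates (chi-square per degree of freedom 6.25 to 48.6).

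The genes and lists were chosen with earlier results of these data known. Named were the 10 genes, Erbb4, the 3 lowest p-values of each pathway list, the 5 genes most like the 10 in profile, and markers where a list moved. The other genes named from the lists and Xist were chosen after their values were seen.

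Alternatives were DESeq2 1.42.0, limma-voom (limma 3.58.1), normalization by relative log expression or upper quartile, all genes with a count, genes averaging 50 counts or more, the replicate number as a block, a term for Xist, a transcript length correction (lowess span 0.3), each library left out and, added after seeing the data, the 5 libraries of low Xist. The steps were tested on simulated data. Figures were drawn with matplotlib 3.10.9.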

Additional observations from a re-analysis of the deposited data

Results flagged for a closer look

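Libraries that stood away from the other 3 of their label were looked for in the 10 genes, Erbb4 and the total counts, 24 groups of 4 libraries in all, by the gap to the nearest library divided by the range (Dixon's test at its 95% critical value). Chance gives this in about 1 group in 20, and 2 of 24 were found. KO replicate 3 was high in Spry1, at 14.1 CPM against 11.0 to 11.3 CPM in the other libraries labelled KO. WT replicate 1 was low in Spred2, at 32.6 CPM against 47.1 to 50.6 CPM in the other WT libraries, and it is the library that the first principal component set apart.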

How the results depend on the processing

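The count of 0 ERK pathway genes with an adjusted p under 0.05 was the same under all 18 alternatives, while 0 to 3 had an unadjusted p under 0.05, where between 1.68% (Xist as a covariate) and 9.40% (without WT replicate 2) of all genes did. Over all genes, edgeR called 4. DESeq2 called 23, relative log expression, upper quartile, the replicate block, Xist as a covariate and the low-Xist libraries each gave 1, the length correction gave 2, and leaving out 1 library gave 1 to 13. The median log2 fold change of the 10 ran from −0.0053 without KO replicate 3 to 0.13 without KO replicate 2. With union exon lengths 6 of 10 level ranks were kept.

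Signs changed as follows, with no adjusted p under 0.05 before or after, and the cause was not tested. With Xist as a covariate, Spry4 was at −0.066, Etv1 at 0.13 and Etv5 at −0.027, and in the low-Xist libraries they were at −0.053, 0.12 and −0.027. The other changes came from leaving out 1 library. Spry1 ran from −0.077 (without KO replicate 3) to 0.072 and was also below 0 without WT replicate 1 or 3. Spry2 ran from −0.047 (without WT replicate 4) to 0.098 and was also below 0 without KO replicate 3. Spry4 ran from −0.025 (without KO replicate 3) to 0.26. Dusp4 ran from −0.089 (without KO replicate 1) to 0.14 and was also below 0 without WT replicate 4 or KO replicate 3. Etv1 ran from −0.13 to 0.026 (without WT replicate 2). Etv5 ran from −0.0074 (without KO replicate 3) to 0.040.

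The labels share replicate numbers 1 to 4, but same-numbered libraries correlated by only 0.0837, 0.135, 0.0476 and 0.0236 in their deviations from the genotype means, so the numbers were not read as pairs. With the replicate block, 3 of the 10 had an unadjusted p under 0.05 (Dusp6, Spred1 and Spred2) against 6.97% of all genes, and the median log2 fold change of the 10 was 0.079. Counting error is largest for Spry4, at 10.6% for the 89 counts of the lowest library, below its biological coefficient of variation of 17.96%.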
